A study of Mus musculus with 28 samples.

Results

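Whether loss of the checkpoint gene Vsir from keratinocytes alters the transcriptional response of skin to ultraviolet B (UVB) was examined as an interaction, the UV effect in K14Cre Vsir fl/fl mice minus the UV effect in Vsir fl/fl mice. All 16 libraries of the keratinocyte experiment were used, out of 28 in the series, and fall into 4 groups of 4. The control groups (FL) carry floxed Vsir alleles and no Cre is named in their labels. The altered groups (cKO) carry the same alleles with Cre under the keratin 14 promoter, which is active in basal keratinocytes, and cells that descend from these inherit the recombined alleles. Which cells of the skin carried the deletion was not measured. All mice were 12-week-old females, and hair was shaved and removed with cream 5 days before exposure. UV groups received UVB at 500 mJ/cm² and NoUV groups received none. Sample titles place the harvest 3 h after exposure, whereas the treatment protocol gives 1 day, and the labels do not settle which holds. RNA came from skin, 1 batch date is given for all 16 libraries, and the design text calls them biological replicates of littermates without stating the number of mice per library. If mice were shared or pooled, the p values below measure the spread between these samples only.

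VISTA, the product of Vsir, is an inhibitory checkpoint protein of the B7 family, best known on myeloid and T cells. UVB damages DNA and RNA in keratinocytes and sets off a fast stress programme of immediate early transcription factors, followed by cytokines, p53 targets and type I interferon signalling. In the interferon pathway, sensors of nucleic acid drive interferon release, the receptor signals through STAT proteins, and interferon-stimulated genes such as Irf7, Usp18, Ifit1 and Isg15 are switched on. An interaction can arise from either of its terms: the genotypes may already differ without UV (the baseline difference, cKO minus FL) or may differ after UV (the same subtraction in the UV groups). The interaction equals the second difference minus the first, and all are given on the log2 scale with a standard error (SE). A negative interaction means a smaller UV increase, or a larger UV decrease, in cKO.

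Because the question concerns interferon, the promoters of 3 interferon-stimulated genes are shown, from RefSeq on build GRCm38.p6, each a window of 300 bases that lies mostly before the start site and is read 5′ to 3′ along the gene. Capitals mark the core of the interferon-stimulated response element, searched on both strands as GAAA, any 2 bases and GAAA again, with overlaps allowed. Irf7 encodes the transcription factor that amplifies interferon production, Ifit1 an antiviral RNA-binding protein and Isg15 a ubiquitin-like modifier.
Irf7 (chr7:141266375-141266674, minus strand): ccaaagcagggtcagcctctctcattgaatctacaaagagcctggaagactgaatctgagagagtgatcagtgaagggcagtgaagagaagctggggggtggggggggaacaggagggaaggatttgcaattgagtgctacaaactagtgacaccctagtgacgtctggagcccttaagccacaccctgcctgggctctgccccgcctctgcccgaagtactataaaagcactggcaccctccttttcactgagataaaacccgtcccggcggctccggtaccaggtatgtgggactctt
Ifit1 (chr19:34640639-34640938, plus strand): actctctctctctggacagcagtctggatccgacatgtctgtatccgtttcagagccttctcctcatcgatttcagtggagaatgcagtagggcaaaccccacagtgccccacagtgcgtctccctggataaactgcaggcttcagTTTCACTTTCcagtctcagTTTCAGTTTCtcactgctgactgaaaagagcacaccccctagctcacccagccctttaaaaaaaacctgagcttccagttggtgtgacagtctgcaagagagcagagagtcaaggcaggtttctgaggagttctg
Isg15 (chr4:156200769-156201068, minus strand): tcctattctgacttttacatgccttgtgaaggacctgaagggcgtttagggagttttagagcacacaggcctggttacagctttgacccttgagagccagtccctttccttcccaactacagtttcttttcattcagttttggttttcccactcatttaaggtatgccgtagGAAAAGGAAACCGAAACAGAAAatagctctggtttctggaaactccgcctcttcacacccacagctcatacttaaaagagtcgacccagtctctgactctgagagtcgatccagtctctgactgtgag

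The Ifit1 window held 2 matches and the Isg15 window 3 overlapping ones, whereas the Irf7 window held 0. Of all 32851 promoters in the table, 3.44% held a match. Among the 49 interferon-stimulated genes tested, 35 have a promoter in the table and 18 of them held a match. Members with a match had a median interaction of -0.34 and a median baseline difference of 0.47. For the 17 members without one, the medians were -0.52 and 0.38, so the sign of each was shared by both sets. A match in this window is a description of the letters and not of binding.

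Total counts per library ran from 7117198 to 31138604, with FL NoUV 1 (7117198) and cKO UV 3 (7509742) the shallowest, and 19718 of 57126 genes had enough counts to test. The libraries differed most in growing hair follicle. The mean log2 CPM (read counts scaled to library size) of 28 markers of that compartment followed the first principal component of the 500 most variable genes, which held 54.1% of the variance (r = 0.99 over the 16 libraries, as a description). This hair score was 1.35, 3.62, -0.29 and 5.95 in FL NoUV and 4.16, 0.08, -0.26 and 3.90 in FL UV. It was 6.99, -0.40, -0.50 and 1.00 in cKO NoUV and 1.86, -0.37, -0.29 and -0.34 in cKO UV. High and low libraries thus occurred in 3 of the groups, while cKO UV held 1 library above 0 and none above 3. In bulk skin, fewer cells of a type and less RNA per cell cannot be told apart. The 10 genes named by the rule whose unadjusted interaction p was under 0.05 and no longer so without the 5 libraries above 3 are given with and without them. A second check uses the 8 libraries whose column names carry numbers in the 500s, replicates 2 and 3 of each group.

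Vsir itself was detected in all groups. It measured 19.4, 22.5, 38.5 and 20.8 CPM in FL NoUV and 25.0, 27.8, 36.3 and 29.1 CPM in FL UV. In cKO it measured 17.0, 35.1, 38.3 and 45.0 CPM without UV and 14.5, 39.6, 24.8 and 33.2 CPM after it. The groups overlapped fully. The interaction was -0.49 (SE 0.45, 95% interval -1.44 to 0.46, edgeR adjusted p = 1), from a baseline difference of 0.41 and a difference after UV of -0.07. A count over the whole gene in whole skin includes cells without K14Cre and exons outside the floxed part, so it does not check the deletion. The keratinocyte genes Krt14 (732 to 3027 CPM) and Krt5 (1970 to 4118 CPM) were abundant in every library, as were markers of muscle such as Myh2 (71.7 to 719.7 CPM), so RNA of muscle was present and the material was not epidermis alone.

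No gene passed the test for an interaction. Of 19718 genes, 0 had an edgeR adjusted p under 0.05 (0% called), the smallest adjusted p being 1, and 248 (1.26%) had an unadjusted p under 0.05. The last count was 192 to 469 with 1 library left out, the libraries that raised it by more than 1.5 times being FL NoUV 4 (469), FL NoUV 3 (418) and cKO NoUV 1 (375). DESeq2 and limma also called 0, with 476 and 809 genes at an unadjusted p under 0.05. The 1.26% of the main fit lies below the share of 0.05 that tests without any effect would give on average. Of the 248, 123 had an interaction above 0 (0.624% of all genes) and 125 below 0 (0.634%). The median interaction over all genes was -0.002, with quartiles of -0.18 and 0.18. The median SE was 0.38, so an interaction had to be large to stand out. Each genotype did respond to UV. In FL 1502 genes were called (7.62%), 695 higher (3.52%) and 807 lower (4.09%), and in cKO 1917 (9.72%), 901 higher (4.57%) and 1016 lower (5.15%). The FL count was 884 without FL UV 4, 904 without FL NoUV 2 and 1000 without FL NoUV 4, and the cKO count was 1178 without cKO NoUV 3 and 1195 without cKO NoUV 2. Leaving out the 5 libraries of high hair score together, of which 4 are FL, left 2 FL libraries per group with 65 calls, and 1537 calls in cKO. A gene called in only 1 of these lists has not been shown to differ between them.

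Neither term of the interaction gave a called gene in edgeR. The baseline difference had 0 called genes and 928 (4.71%) at an unadjusted p under 0.05, of which 577 were higher in cKO (2.93%) and 351 lower (1.78%). DESeq2 called 6 genes at baseline. The difference after UV had 0 called genes and 1046 (5.3%) at an unadjusted p under 0.05, 569 higher in cKO (2.89%) and 477 lower (2.42%), and DESeq2 called 5. Shares of 4.71% and 5.3% in the main fit are near the 0.05 that tests without any effect would give on average. Both counts moved with the setting. The baseline count was 4310 in limma, 2475 without cKO NoUV 1 and 460 without cKO NoUV 4. The count after UV was 3152 in limma, 1866 without FL UV 2 and 597 without FL UV 1. Across all genes the 2 differences, which share no library, had a Pearson r of 0.27.

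To place each of the 248 interactions, a gene was put at baseline when the unadjusted p was under 0.05 in the baseline difference alone, and after UV when it was so in the other alone. By this rule 99 lay at baseline, 78 after UV, 4 at both with opposite signs and 67 in neither alone. For interactions below 0 the counts were 53, 44, 1 and 27 of 125. For those above 0 they were 46, 34, 3 and 40 of 123. The classes describe genes picked by their interaction and carry no test. In the plot of the 2 differences, immediate early and interferon genes lie to the right along the horizontal axis, and Itgb3, Osr1 and Nexmif lie below it.

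**Figure D1:**
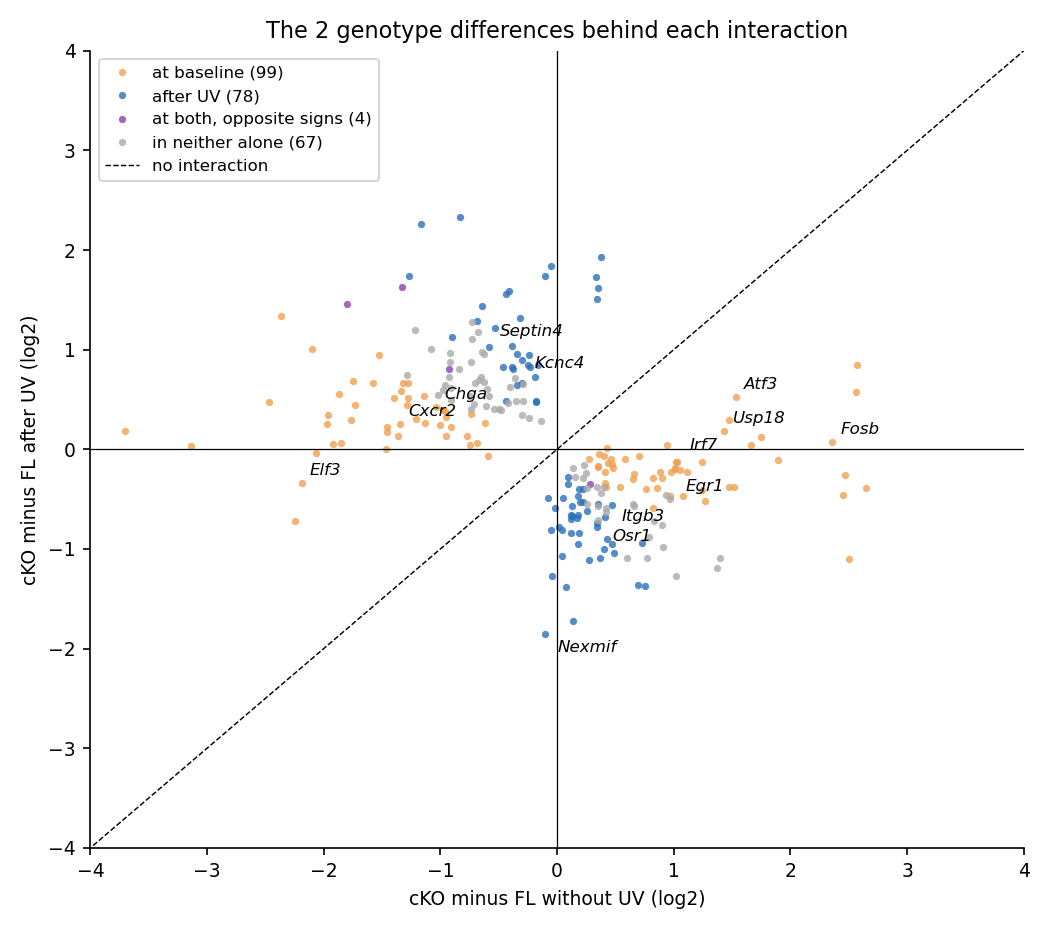
Difference between cKO and FL after UV (vertical axis, log2) against the same difference without UV (horizontal axis, log2) for the 248 genes with an unadjusted interaction p under 0.05, colored by where the interaction arose. The empty band along the dashed line, on which the interaction is 0, follows from the choice of genes, and 5 genes lie outside the axes.

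Interferon-stimulated genes had lower interactions as a list, and the larger term was the baseline one. Of 49 members tested, 44 had an interaction below 0 (50.2% of all genes), with a median of -0.37, and 2 of the 49 reached an unadjusted p under 0.05, against 0.634% of all genes in that direction. The median baseline difference was 0.36 and the median difference after UV was -0.05. At baseline 44 members lay above 0 (50% of all genes), and 6 did so with an unadjusted p under 0.05 (2.93% of all genes). In 40 of the 49 the interaction was below 0 and the baseline difference above 0, as in 33.5% of all genes. None of the 49 was called in the interaction. The list median was -0.20 without FL NoUV 4, -0.18 without FL UV 4 and -0.65 without FL NoUV 3. With the 5 libraries of high hair score left out it was -0.05, with 26 of 49 below 0. In the 8 libraries numbered in the 500s it was -0.06, with 31 below 0. The part of hair follicle content in the list's shift was not tested. After UV, 11 members were called higher in FL (3.52% of all genes) and 4 in cKO (4.57%).

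Irf7 and Usp18 had the smallest interaction p of the list. Irf7 stood at 6.80, 4.43, 7.33 and 5.70 CPM in FL NoUV and at 13.3, 11.3, 12.2 and 13.9 CPM in FL UV. In cKO it stood at 11.4, 11.7, 18.6 and 7.62 CPM without UV and at 14.7, 12.5, 10.97 and 8.19 CPM after UV. Every unexposed cKO library was above every unexposed FL library, while the 2 UV groups overlapped. The interaction was -1.15 (SE 0.35, unadjusted p = 0.00478, edgeR adjusted p = 1), with a baseline difference of 1.03 and a difference after UV of -0.13. Irf7 was called higher after UV in FL (1.07, edgeR adjusted p = 0.0165), and its UV effect in cKO was -0.09 (adjusted p = 0.869). With the 5 libraries of high hair score left out, the Irf7 interaction was -0.86 (unadjusted p = 0.0933).

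Usp18, which encodes a protease that removes ISG15 from proteins and restrains the type I interferon receptor, stood at 2.69, 2.39, 2.59 and 1.22 CPM in FL NoUV and at 2.64, 4.91, 3.77 and 5.04 CPM in FL UV. Unexposed cKO libraries measured 7.88, 5.03, 4.25 and 6.61 CPM, and exposed ones 5.06, 4.69, 3.29 and 5.31 CPM. Here too the NoUV groups did not overlap, cKO above FL, which was so for 1.4% of all genes. The interaction was -1.26 (SE 0.41, unadjusted p = 0.0078, edgeR adjusted p = 1), from 1.43 at baseline and 0.18 after UV. With the 5 libraries of high hair score left out, the Usp18 interaction was -0.92 (unadjusted p = 0.0545).

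The 3 fixed antiviral effectors differed less. Ifit1 measured 5.52, 5.67, 5.29 and 3.35 CPM in FL NoUV and 6.67, 6.92, 6.45 and 6.404 CPM in cKO NoUV. Exposed libraries measured 12.5, 9.45, 9.96 and 17.7 CPM in FL and 13.5, 16.4, 8.23 and 10.3 CPM in cKO. The unexposed groups did not overlap and the exposed groups did, and Ifit1 was called higher after UV in both genotypes (1.33 and 0.88, edgeR adjusted p = 0.0041 and 0.0324). Its interaction was -0.45 (SE 0.35). Isg15 was the exception in direction: it measured 2.004, 0.722, 2.17 and 2.72 CPM in FL UV and 4.03, 4.21, 3.43 and 2.93 CPM in cKO UV, and its interaction was 0.24 (SE 0.63), with 0.92 after UV. Mx1, an antiviral GTPase, had an interaction of -0.10 (SE 0.62). Of the other members, named outside the rule after their values were seen, Isg20, an exonuclease, had -0.58 (baseline 0.88, after UV 0.30), and Rsad2, which encodes viperin, had -0.93 (baseline 0.88, after UV -0.05). Oasl1 was placed after UV, with -1.46 (baseline 0.39, after UV -1.07).

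Upstream of these genes, the 18 tested interferon ligands, receptors and sensors showed a median interaction of 0.06, with 7 below 0 and none at an unadjusted p under 0.05. Tlr7, the endosomal receptor for single-stranded RNA, had the smallest p of that list, with -1.05 (SE 0.70), and Cgas, the sensor of cytosolic DNA, followed with 0.48 (SE 0.35). Genes of interferon gamma signalling and antigen presentation, 23 in number, had a median of 0.16 and medians of 0.14 at baseline and 0.26 after UV. Nlrc5, the activator of MHC class I genes, measured 71.8, 73.0, 82.9 and 73.6 CPM in FL UV and 90.1, 123.2, 103.5 and 115.2 CPM in cKO UV. Those groups did not overlap, cKO above FL, as in 1.38% of all genes, and the Nlrc5 interaction was 0.25 (SE 0.19). The chemokine Cxcl10 had an interaction of 0.64 (SE 0.54), with -0.99 at baseline.

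Immediate early genes held more members at baseline than the other pathway lists. Of 27 tested, 21 had an interaction below 0 (50.2% of all genes), with a median of -0.26. Below 0, 4 had an unadjusted p under 0.05 (0.634% of all genes). The median baseline difference was 0.44, with 9 of 27 higher at an unadjusted p under 0.05, against 2.93% of all genes, and the median after UV was 0.08. Without the 5 libraries of high hair score the median interaction was -0.34, and it lay between -0.37 and -0.16 in all 28 alternative analyses. The list score was 4.86, 4.73, 4.93 and 4.86 in FL NoUV and 5.6, 5.65, 5.24 and 5.12 in cKO NoUV, with no overlap. After UV it was 6.05, 5.79, 6.18 and 5.94 in FL and 6.08, 6.02, 6.22 and 6.23 in cKO, where the groups overlapped. UV raised 17 members in FL (3.52% of all genes) and 9 in cKO (4.57%) by the adjusted test.

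Egr1, a zinc finger factor induced by growth factor and stress signals, stood at 155.7, 107.8, 134.8 and 219.9 CPM in FL NoUV and at 538, 300.2, 451 and 500.3 CPM in FL UV. Unexposed cKO libraries stood at 213, 586, 415 and 245 CPM, and exposed ones at 317, 394, 576 and 345 CPM. The unexposed cKO range reached that of both UV groups. The interaction was -1.37 (SE 0.44, unadjusted p = 0.00657, edgeR adjusted p = 1), from 1.24 at baseline and -0.13 after UV. Egr1 was called higher after UV in FL (1.53, edgeR adjusted p = 0.00778), and its UV effect in cKO was 0.16 (adjusted p = 0.794).

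Fosb, a subunit of the AP-1 factor, measured 6.80, 2.44, 11.2 and 1.60 CPM in FL NoUV against 47.3, 39.1, 7.66 and 18.1 CPM in cKO NoUV. After UV the values were 32.7, 24.7, 27.3 and 31.0 CPM in FL and 32.6, 29.6, 33.7 and 25.8 CPM in cKO. Unexposed cKO libraries scattered from the FL level to above the UV level, whereas the UV groups were alike in range. The interaction was -2.29 (SE 0.77, unadjusted p = 0.00905, edgeR adjusted p = 1), from 2.36 at baseline and 0.07 after UV. Without the 5 libraries of high hair score, which include the highest of these cKO libraries, it was -1.03 (unadjusted p = 0.159). In the 8 libraries numbered in the 500s it was -1.48 (unadjusted p = 0.247).

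Atf3, a stress-induced factor that represses inflammatory genes, showed the smallest baseline p of the genes named here. It measured 1.84, 3.01, 4.23 and 2.38 CPM in FL NoUV and 6.05, 10.5, 6.25 and 11.2 CPM in cKO NoUV. In the UV groups it measured 20.2, 24.0, 30.6 and 25.8 CPM in FL and 39.4, 44.2, 33.1 and 27.3 CPM in cKO. The unexposed groups did not overlap, and UV brought a called increase in both genotypes (3.10 in FL and 2.09 in cKO, edgeR adjusted p = 3.14e-05 and 0.00029). The baseline difference was 1.53 (unadjusted p = 2.82e-05, edgeR adjusted p = 0.557), and DESeq2 called it (adjusted p = 0.000661). The interaction was -1.01 (SE 0.36, unadjusted p = 0.0128), with 0.52 after UV. In the 8 libraries numbered in the 500s the interaction was -0.69 (unadjusted p = 0.14).

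Nr4a1, an orphan nuclear receptor named here after its values were seen, was higher in cKO in both terms. It measured 9.91, 8.51, 11.6 and 9.68 CPM in FL NoUV and 30.8, 85.0, 30.8 and 22.0 CPM in cKO NoUV. In the UV groups it measured 29.2, 53.4, 25.7 and 46.2 CPM in FL and 83.1, 82.0, 45.8 and 102.4 CPM in cKO. The unexposed groups did not overlap. Its differences were 2.09 at baseline and 1.02 after UV, and the interaction of -1.06 (SE 0.52) had an unadjusted p of 0.06. Also chosen after their values were seen, Klf6, a zinc finger factor, and Dusp1, a phosphatase that switches off MAP kinases, had interactions of -0.52 and -0.94 with baseline differences of 0.35 and 1.22.

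**Figure D2:**
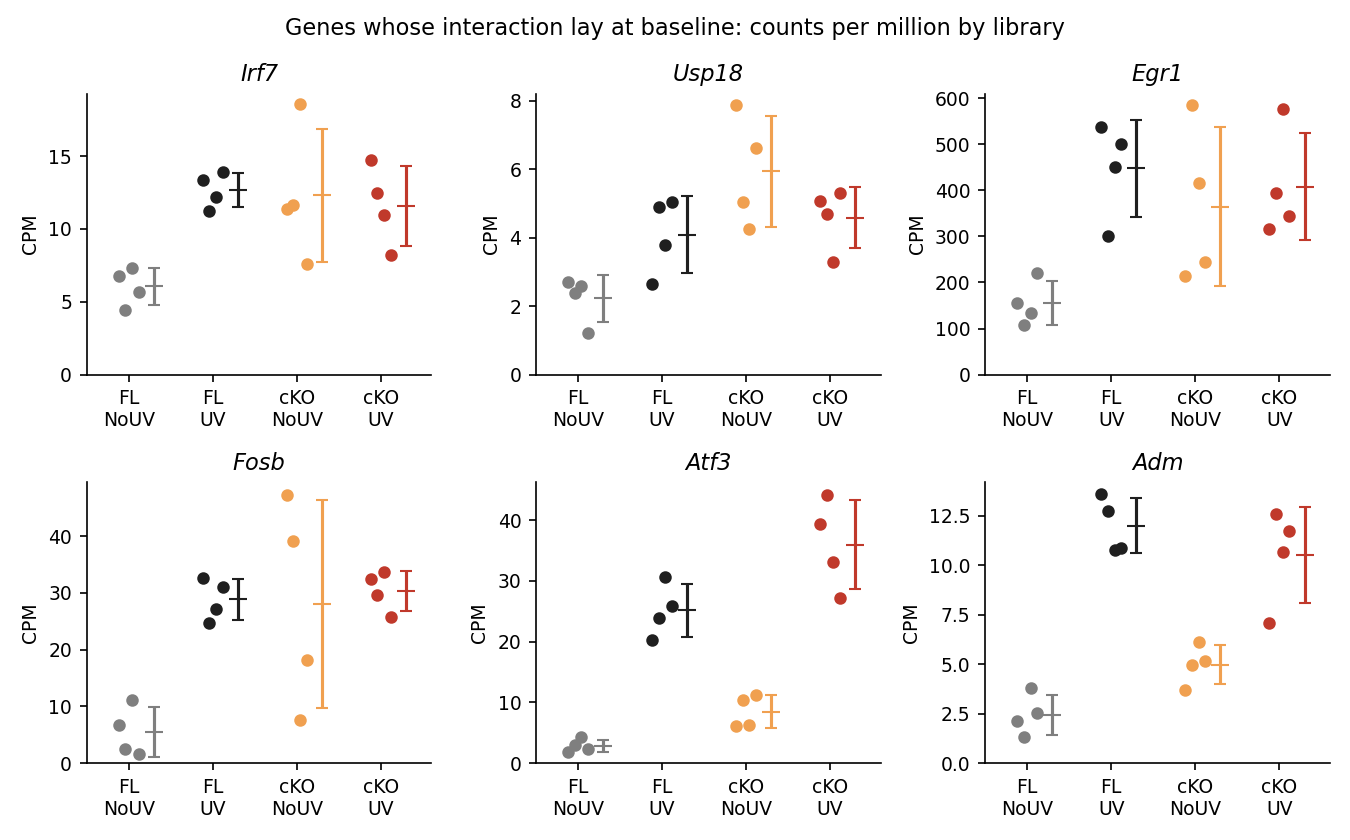
CPM (vertical axes, linear from 0) of 6 genes placed at baseline, in each of 4 libraries per group, with the mean and SD beside the points. For Irf7, Usp18 and Atf3 all unexposed cKO libraries lie above the unexposed FL libraries (Irf7 at 7.62 to 18.6 against 4.43 to 7.33 CPM). For Egr1, Fosb and Adm the unexposed groups overlap, and the UV groups overlap for all 6 genes.

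In the plot of list scores, the immediate early list separates the unexposed groups and the other lists do not. The interferon score was 2.68, 2.54, 3.09 and 2.09 in FL NoUV and 2.82, 2.94, 3.21 and 3.04 in cKO NoUV, which overlapped. FL NoUV 4, the lowest, carried a hair score of 5.95. FL UV 4, with the highest interferon score of all 16 libraries (3.79), carried a hair score of 3.90.

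**Figure D3:**
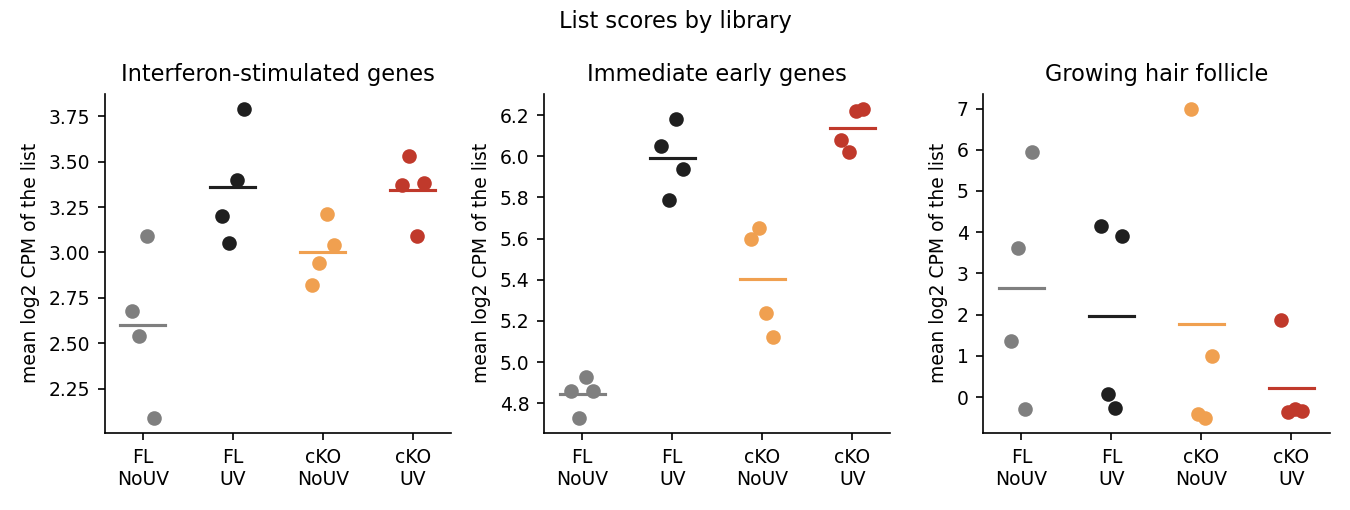
Mean log2 CPM of the tested members of 3 lists (vertical axes, which do not start at 0) in each library, with the group mean as a line. Immediate early scores separate the unexposed groups (4.73 to 4.93 in FL, 5.12 to 5.65 in cKO), interferon scores overlap, and hair scores range from -0.50 to 6.99.

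Inflammatory mediators included many genes called higher after UV in both genotypes, and no member was called in the interaction. The 28 tested cytokines, chemokines and mediators had a median interaction of -0.23, with 21 below 0 and 0 at an unadjusted p under 0.05. Their median UV effect was 1.77 in FL and 1.35 in cKO, with 12 called higher in FL (3.52% of all genes) and 11 in cKO (4.57%). Il6, an acute phase cytokine, was called higher in both (3.11 and 3.52), and its interaction was 0.41 (SE 0.73, 95% interval -1.13 to 1.96). The neutrophil chemokine Cxcl1 had -0.80 (SE 0.67), the monocyte chemokine Ccl2 -0.10 (SE 0.63) and Tnf -0.07 (SE 0.43). Some of these values moved with the libraries used: Cxcl1 had -1.77 (unadjusted p = 0.0562) without the 5 libraries of high hair score. In the 8 libraries numbered in the 500s, Il6 had 1.46 (unadjusted p = 0.126) and Ccl2 had 0.93 (unadjusted p = 0.0396). The intervals over all 16 libraries allow differences of more than 0.8 in either direction for Il6, Ccl2 and Tnf. Tnfaip3, which encodes the NF-κB inhibitor A20, had the smallest p of the list, with -0.59 (SE 0.28, unadjusted p = 0.0501), from 0.57 at baseline and -0.01 after UV.

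Genes of DNA damage gave narrower intervals around 0. The 26 tested p53 targets had a median interaction of -0.06, with 16 below 0. Cdkn1a, the cell cycle inhibitor p21, stood at 97.6, 118.7, 122 and 140.2 CPM in FL NoUV and at 245, 250, 305 and 211 CPM in FL UV. In cKO it stood at 155.0, 159.7, 146.3 and 139.2 CPM without UV and at 206, 264, 348 and 270.3 CPM after UV. It was called higher after UV in both genotypes (1.08 and 0.86), and the interaction of -0.22 had a 95% interval of -0.69 to 0.24. Phlda3, an inhibitor of AKT, had -0.51 (SE 0.27), from 0.57 at baseline and 0.06 after UV.

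Among growth factors, Fgf7, the keratinocyte growth factor made by fibroblasts, measured 8.07, 6.203, 8.25 and 6.30 CPM in FL NoUV and 13.4, 10.9, 9.33 and 15.2 CPM in cKO NoUV, with no overlap. After UV it measured 8.31, 12.4, 11.7 and 9.06 CPM in FL and 4.61, 6.13, 7.41 and 13.3 CPM in cKO. The interaction was -1.16 (SE 0.39, unadjusted p = 0.00898, edgeR adjusted p = 1), from 0.76 at baseline and -0.40 after UV. The 15 members of its list had a median of -0.27, with 11 below 0.

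Adm, Lvrn and Trim16 were also placed at baseline with a negative interaction. Adm, the vasodilator peptide adrenomedullin, measured 2.12, 1.33, 3.79 and 2.54 CPM in FL NoUV and 3.69, 4.95, 6.12 and 5.15 CPM in cKO NoUV. Exposed libraries measured 13.6, 12.8, 10.8 and 10.9 CPM in FL and 7.08, 12.6, 10.7 and 11.7 CPM in cKO. It was called higher after UV in both (2.28 and 1.08), with an interaction of -1.20 (SE 0.38, unadjusted p = 0.00632). Lvrn, which encodes the aminopeptidase laeverin, had -1.20 (SE 0.38) and Trim16, of the tripartite motif family, had -0.68 (SE 0.21), from 1.01 and 0.58 at baseline.

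A second set of negative interactions arose after UV. Itgb3, the integrin beta 3 chain, had the smallest p of the named genes. It measured 6.52, 8.11, 13.1 and 11.5 CPM in FL NoUV and 13.9, 14.4, 11.4 and 12.9 CPM in cKO NoUV. In the UV groups it measured 14.5, 10.8, 12.8 and 13.0 CPM in FL and 8.85, 7.81, 6.99 and 8.14 CPM in cKO, all 4 below the FL libraries, a separation found for 1.34% of all genes. The interaction was -1.09 (SE 0.28, unadjusted p = 0.00117, edgeR adjusted p = 1). Its terms were 0.41 at baseline (unadjusted p = 0.0522) and -0.68 after UV (unadjusted p = 0.00321), so the baseline term lay just outside the rule.

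Osr1, a zinc finger factor of mesenchymal cells, measured 7.22, 4.74, 8.66 and 8.55 CPM in FL NoUV and 17.7, 12.5, 15.7 and 17.1 CPM in FL UV. In cKO it measured 6.43, 8.96, 10.9 and 12.2 CPM without UV and 4.73, 9.30, 8.23 and 9.24 CPM after UV. The FL UV libraries lay above all others. Osr1 was called higher after UV in FL (1.11, edgeR adjusted p = 0.0145), and its UV effect in cKO was -0.29 (adjusted p = 0.513). The interaction was -1.40 (SE 0.36, unadjusted p = 0.00131, edgeR adjusted p = 1).

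Nexmif, a gene of neurite extension and migration, differed most clearly after UV. It measured 2.27, 2.70, 4.67 and 2.13 CPM in FL NoUV and 2.78, 2.59, 2.54 and 3.18 CPM in cKO NoUV. After UV it measured 2.30, 3.97, 6.66 and 3.02 CPM in FL and 1.32, 1.20, 0.549 and 1.19 CPM in cKO. The exposed cKO libraries lay below all others. The difference after UV was -1.85 (unadjusted p = 9.63e-05, edgeR adjusted p = 0.865), and DESeq2 called it (-1.84, adjusted p = 0.00701). The interaction was -1.75 (SE 0.49, unadjusted p = 0.00264), and -1.89 without the 5 libraries of high hair score.

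Slc25a24, a mitochondrial carrier of adenine nucleotides, was placed at both with opposite signs, with smaller differences. It measured 35.8 to 41.4 CPM in FL NoUV, 41.2 to 54.6 CPM in cKO NoUV, 38.5 to 49.7 CPM in FL UV and 30.0 to 38.4 CPM in cKO UV. The interaction was -0.63 (SE 0.17, unadjusted p = 0.00212), from 0.28 and -0.35. Hmox1, heme oxygenase and a target of NRF2, measured 95.6, 67.9, 130.1 and 173.2 CPM in FL UV and 67.4, 73.2, 80.0 and 67.3 CPM in cKO UV. Its interaction was -0.82 (SE 0.31, unadjusted p = 0.0175), from 0.12 at baseline and -0.70 after UV. It was -0.60 (unadjusted p = 0.119) without the 5 libraries of high hair score and -0.31 (unadjusted p = 0.43) in the 8 libraries numbered in the 500s. The 18 NRF2 targets had a median of 0.01.

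**Figure D4:**
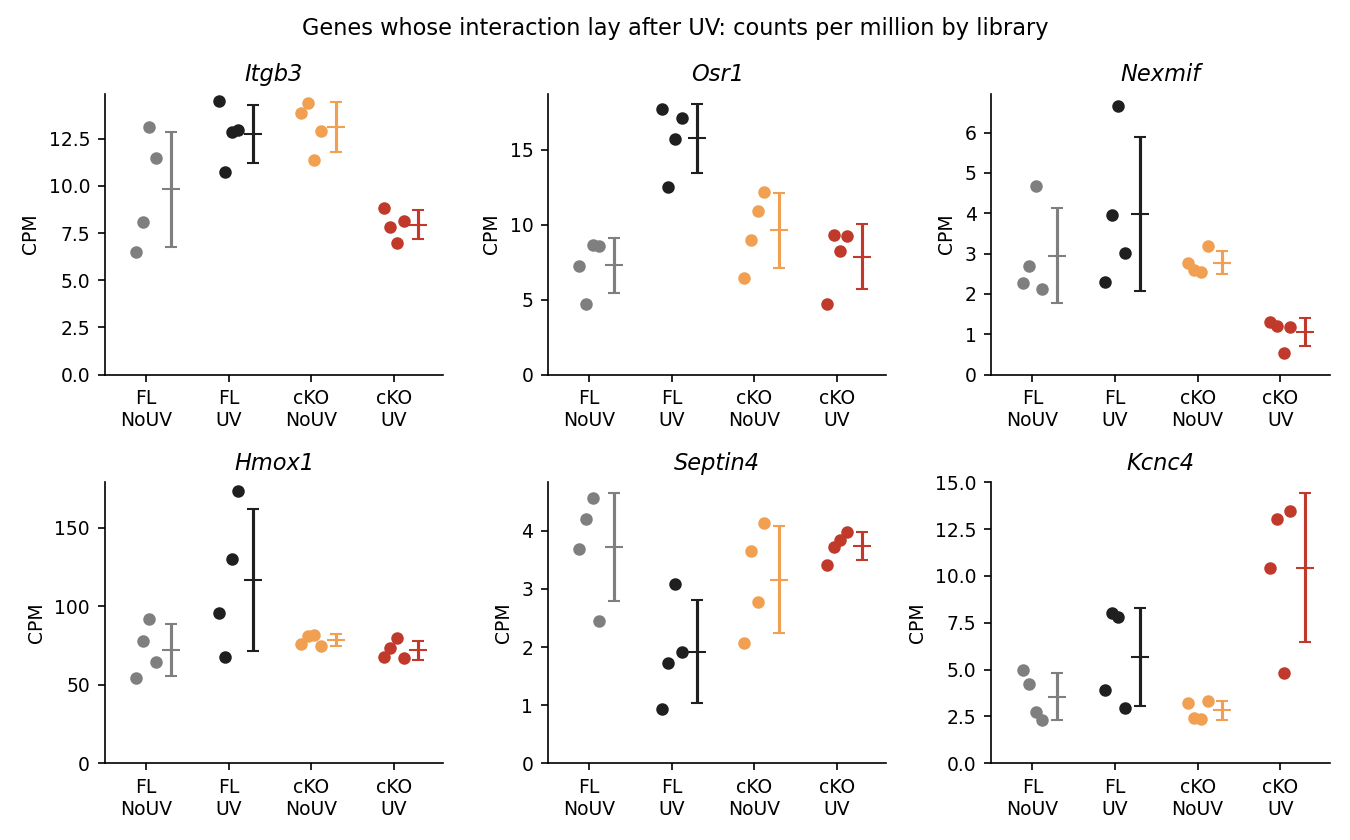
CPM (vertical axes, linear from 0) of 6 genes placed after UV, in each of 4 libraries per group, with the mean and SD beside the points. Exposed cKO libraries lie below exposed FL libraries for Itgb3, Osr1 and Nexmif and above them for Septin4, and overlap with them for Hmox1 and Kcnc4.

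Among checkpoint genes, Cd276, which encodes the B7 family member B7-H3, was lower in cKO in both terms, with -0.40 at baseline and -0.98 after UV. It measured 22.5, 11.4, 14.4 and 17.9 CPM in FL UV and 11.2, 9.18, 8.37 and 4.87 CPM in cKO UV, and its interaction was -0.58 (SE 0.33), or -0.21 without the 5 libraries of high hair score. Cd274, which encodes PD-L1, had 0.13 (SE 0.31). The 18 tested genes of checkpoints and VISTA partners had a median of -0.07, with 10 below 0.

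Hoxc10, a gene of positional identity along the body, had a fitted interaction of -5.26 (SE 1.72, unadjusted p = 0.00668). That value rests on libraries with 0 to 2 counts in cKO UV, so it depends on the prior count of the fit and is not a measured fold. It measured 1.79, 0, 2.09 and 4.71 CPM in FL UV and 0.0823, 0.0801, 0 and 0 CPM in cKO UV. In the unexposed groups it measured 0.567, 2.92, 4.98 and 3.76 CPM in FL and 0.0829, 4.40, 3.14 and 4.81 CPM in cKO. Near-zero libraries therefore occurred in 3 of the groups. Another positional gene, Hoxa9, chosen after its values were seen, measured 1.28, 19.4, 14.8 and 13.0 CPM in FL NoUV, 1.20, 13.8, 18.6 and 15.95 CPM in cKO NoUV, 4.31, 1.88, 5.10 and 12.5 CPM in FL UV and 2.59, 3.49, 2.47 and 3.08 CPM in cKO UV. The mean in FL UV and cKO UV was 9.51 and 2.85 CPM for Hoxb9 and 2.54 and 1.42 CPM for Hoxc9. Not every positional gene followed Hoxc10. Means in that order were 4.29 and 6.15 CPM for Hoxd9, 26.0 and 25.8 CPM for Hoxc8 and 14.2 and 14.6 CPM for Hoxc6. The part of the sampled body site in these values was not tested.

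Fibroblast and macrophage markers also leaned below 0 after UV. Of 15 fibroblast markers, 14 had an interaction below 0 (median -0.45), with 4 at an unadjusted p under 0.05, against 50.2% and 0.634% of all genes. The median was 0.04 at baseline and -0.53 after UV, where 9 of 15 were lower at an unadjusted p under 0.05, against 2.42% of all genes. Col1a1, the alpha 1 chain of type I collagen, named with Col1a2 and Fn1 after their values were seen, measured 1418, 1340, 1943 and 2822 CPM in FL NoUV and 3074, 3981, 2500 and 3708 CPM in FL UV. In cKO it measured 2309, 2258, 1726 and 1356 CPM without UV and 1860, 2806, 1527 and 1539 CPM after UV. Its interaction was -0.80 (SE 0.37, unadjusted p = 0.0468), with 0.02 at baseline and -0.78 after UV. Col1a2 and Fn1 had -0.80 and -0.84. Without the 5 libraries of high hair score the fibroblast median was -0.57. All 15 macrophage and monocyte markers had an interaction below 0 (median -0.47), 0 of them at an unadjusted p under 0.05, and without the 5 libraries the median was -0.16. Whether these marker shifts have a part in the results for Osr1 or other genes was not tested.

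Over all tested genes, interactions at an unadjusted p under 0.05 were about as frequent above 0 as below (123 and 125). Among the genes eligible for naming, the 10 smallest p reached 0.0343 above 0 and 0.00668 below 0. Elf3, an epithelial transcription factor, measured 2.27, 7.22, 8.94 and 1.66 CPM in FL NoUV and 1.45, 0.825, 1.44 and 0.712 CPM in cKO NoUV, with no overlap (cKO below FL without UV in 0.791% of all genes). Exposed libraries measured 5.12, 1.37, 10.3 and 3.46 CPM in FL and 4.45, 3.57, 5.49 and 2.78 CPM in cKO. The interaction was 1.85 (SE 0.80, unadjusted p = 0.0343), from -2.19 at baseline and -0.34 after UV. Leaving out the 5 libraries of high hair score gave 1.96 for Elf3 (unadjusted p = 0.0748).

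Cxcr2, the receptor for neutrophil chemokines, measured 26.1, 21.2, 13.8 and 6.96 CPM in FL NoUV and 10.4, 4.13, 9.53 and 2.51 CPM in cKO NoUV. In the UV groups it measured 7.16, 8.23, 12.6 and 8.17 CPM in FL and 10.2, 9.50, 18.8 and 5.02 CPM in cKO, and all groups overlapped. The interaction was 1.59 (SE 0.68, unadjusted p = 0.032), from -1.35 at baseline. The 8 tested neutrophil markers had a median of 1.04, with -1.33 at baseline and -0.01 after UV. The defining marker Retnlg was at or below 1.07 CPM in every library. Mmp12, the macrophage elastase, had 1.5 (SE 0.64), from -1.36 at baseline. Chga, which encodes chromogranin A of neuroendocrine cells, had 1.46 (SE 0.61), from -1.04 at baseline. Leaving out the 5 libraries of high hair score gave 1.43 for Mmp12 (unadjusted p = 0.129) and 1.39 for Chga (unadjusted p = 0.104). In the 8 libraries numbered in the 500s Mmp12 had 1.18 (unadjusted p = 0.216).

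After UV, Septin4, a septin of the cytoskeleton, measured 0.938, 1.73, 3.09 and 1.91 CPM in FL and 3.42, 3.73, 3.84 and 3.97 CPM in cKO, with no overlap (cKO above FL after UV in 1.38% of all genes). Without UV it measured 3.68, 4.21, 4.57 and 2.44 CPM in FL and 2.07, 3.65, 2.78 and 4.14 CPM in cKO. Its interaction was 1.19 (SE 0.45, unadjusted p = 0.018), from -0.24 at baseline and 0.95 after UV. Npbwr1, a neuropeptide receptor, had 0.92 (SE 0.30, unadjusted p = 0.00819), and 0.57 (unadjusted p = 0.191) in the 8 libraries numbered in the 500s. Its terms were of similar size, -0.44 at baseline (unadjusted p = 0.0553) and 0.48 after UV (unadjusted p = 0.0432). Npbwr1 had a called decrease after UV in FL (fell by 1.08, edgeR adjusted p = 0.00668) and -0.16 in cKO (adjusted p = 0.695). Kcnc4, a voltage-gated potassium channel, had 1.20 (SE 0.52), and 0.76 (unadjusted p = 0.248) in the 8 libraries numbered in the 500s. Its terms were -0.30 at baseline and 0.90 after UV. Ccdc187, H3f3aos and Cwc27 complete the 10, with 1.10, 0.97 and 0.55. Ccdc187 had -0.25 at baseline and 0.85 after UV, and H3f3aos had -0.30 and 0.67. Cwc27 was placed in neither alone, with -0.24 at baseline and 0.31 after UV. Without the 5 libraries of high hair score the unadjusted p was 0.0843 for Septin4 (0.84), 0.153 for Kcnc4 (0.87) and 0.0836 for Ccdc187 (0.88). H3f3aos is an antisense transcript, and the use of strand in counting is not stated.

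Epidermal genes leaned the other way from interferon and immediate early genes, again through the baseline term. Of 36 tested genes of epidermal differentiation, 30 had an interaction above 0 (49.8% of all genes), with a median of 0.38, and 0 reached an unadjusted p under 0.05. Their median was -0.34 at baseline, with 6 lower at an unadjusted p under 0.05 (1.78% of all genes), and 0.02 after UV. Hrnr, the cornified layer protein hornerin, measured 2176, 2281, 3048 and 1229 CPM in FL NoUV and 579, 754, 2104 and 757 CPM in cKO NoUV, which overlapped, and its interaction was 0.97 (SE 0.67). The 17 keratinocyte stress genes had a median of 0.26, with -1.28 at baseline and -0.76 after UV. The first median ranged from -0.03 (without FL UV 4) to 1.26 (without FL UV 3), and that of the differentiation genes from 0.09 to 0.57, over 28 alternatives. Krt6a, a keratin of activated epidermis, ranged from 30.9 to 1147 CPM, and its interaction of -0.04 had an SE of 1.19. Krt14, the keratin whose promoter drives Cre, had 0.14 (SE 0.57), and the 20 basal keratinocyte genes had a median of -0.01.

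Other lists gave interactions near 0 or followed single compartments. The 25 cell cycle genes were lower in cKO in both terms (medians -0.73 and -0.82), so their median interaction was -0.07. Likewise 19 muscle markers were higher in cKO in both (0.90 and 0.99, interaction 0.06). The 17 clock genes had 0.33, 0.29 and -0.04 in the same order, and 20 heat shock and unfolded protein genes had 0.09, 0.10 and 0.09. All 28 growing hair follicle markers had an interaction below 0 (median -3.75) and 0 of them an unadjusted p under 0.05. With the hair score as a covariate that median was 0.32, and without the 5 libraries of high score it was 1.37. The score is the mean of these same 28 markers, so neither setting is an independent check of this list. The 12 melanocyte markers had a median of -1.78, which also turned, to 0.18 with the covariate, 1.38 without the 5 libraries and 1.22 without cKO NoUV 1 alone.

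**Figure D5:**
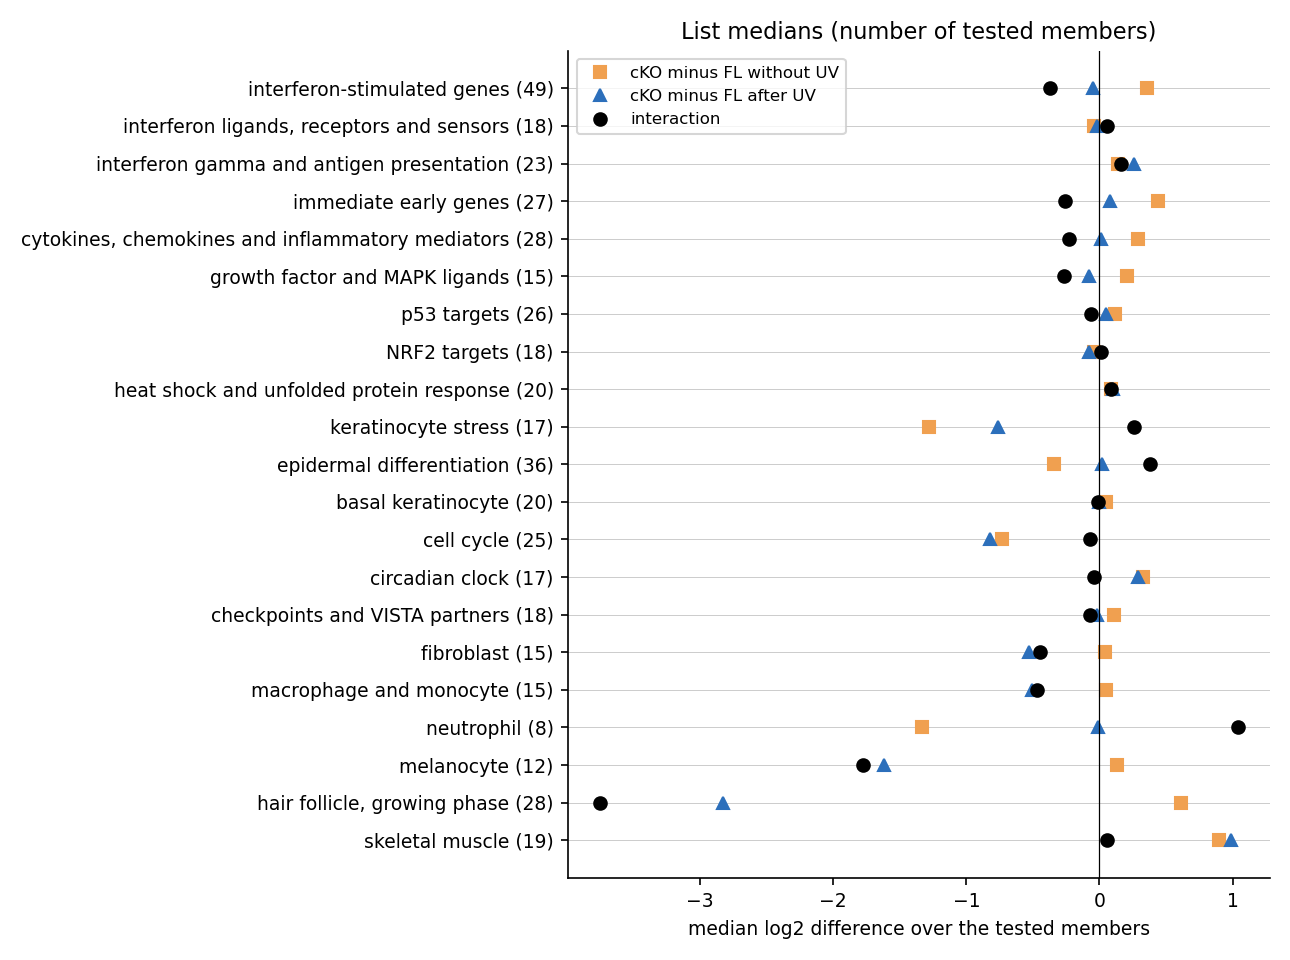
Median over the tested members of each list (number in parentheses) of the baseline difference, the difference after UV and the interaction (horizontal axis, log2). Interferon-stimulated and immediate early genes combine a baseline median above 0 (0.36 and 0.44) with one near 0 after UV, and the hair follicle list has the lowest interaction, -3.75.

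Genes that responded to UV in the separate whole-body experiment of the series were examined as a wider set. Of those called higher in both its genotypes by at least 1 on the log2 scale, 1058 were tested here. Their median interaction was 0.13, with 661 above 0 (49.8% of all genes). At an unadjusted p under 0.05, 17 lay above 0 and 11 below (0.624% and 0.634% of all genes). The median UV effect of the 1058 was 0.62 in FL and 0.75 in cKO. The 571 genes called lower there had a median of -0.07, with 342 below 0 (50.2% of all genes). Of these 571, 3 lay above 0 and 10 below at an unadjusted p under 0.05. The median of the higher set was -0.03 without the shallow FL NoUV 1 and 0.58 without the 5 libraries of high hair score. In the 8 libraries numbered in the 500s, which also leave out FL NoUV 1, it was 0.30.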

How the data were processed

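Skin RNA was depleted of ribosomal RNA and sequenced in pairs, per the labels' protocols. The submitters' processing notes name cutadapt 4.6 for trimming, HISAT2 2.1.0 as aligner and featureCounts as counter. The deposited values are raw counts per gene, not normalized by the authors. Use of strand and of reads with several alignments is not stated, so near-identical genes are uncertain. The notes name GRCm38, but the gene positions of this table differ from that build, so none is printed from it. All 16 columns were mapped to samples by name.

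Counts were fitted in edgeR 4.0.16 (R 4.3.3) with TMM scaling, filterByExpr, robust quasi-likelihood and a mean for each of the 4 groups. Tests were two-sided, with Benjamini-Hochberg adjustment over 19718 genes and a threshold of 0.05. SE and 95% intervals come from the fit. CPM are TMM-scaled, and list scores use log2 CPM with a prior count of 3. Total counts were 7117198 to 31138604, and the floor of 3 counts covers counting error only. No duplicated library was found. The fit was tested on simulated data.

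The rule for naming took Vsir, 14 fixed genes and the 2 members with the smallest p in each of 15 pathway lists. It also took the genes with the 10 smallest interaction p in each direction (mean log2 CPM of at least 1, without predicted, mitochondrial or keratin-associated genes), 61 genes in all. Il36a, Trp53inp1, Hspb8, Sprr2a1, S100a9, Calml3, Itga3, Itgb1, Per1 and Lgals9 met the rule through their pathway lists, and their values are not given in the text. Nr4a1, Klf6, Dusp1, Isg20, Rsad2, Oasl1, Col1a1, Col1a2, Fn1 and the positional genes other than Hoxc10 fall outside this rule and were chosen after their values were seen. Krt5, Myh2 and Retnlg were added as markers. The comparison, the 31 lists and this rule were chosen with earlier results of these data known. Alternatives were RLE scaling, other filters, DESeq2 1.42.0, limma 3.58.1 with sample weights, blocks, hair and muscle scores as covariates, fits of 2 groups, and libraries left out.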

Additional observations from a re-analysis of the deposited data

Results flagged for a closer look

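Among 104 groups of 4 values examined (18 genes and 8 library measures), 4 held a library far from the other 3, a share that chance alone gives in about 1 of 20 groups. In cKO UV the hair score of replicate 1 was 1.86, while the others lay between -0.37 and -0.29. Vsir in FL NoUV replicate 3 was 38.5 CPM against 19.4 to 22.5 CPM. Nexmif in cKO UV replicate 3, a shallow library, was 0.549 CPM against 1.19 to 1.32 CPM. Ifit1 in FL NoUV replicate 4 was 3.35 CPM against 5.29 to 5.67 CPM, in the library with a hair score of 5.95. The highest Ifit1 value (17.7 CPM) was in FL UV replicate 4, with a hair score of 3.90.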

How the results depend on the processing

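The count of called interactions was 0 in all 28 alternatives, with 192 to 1884 genes at an unadjusted p under 0.05. Baseline calls numbered 1 without the filter (Atf3), 6 in DESeq2 and 1 with the replicate block (Klk9, -1.34), and calls after UV numbered 5 in DESeq2. UV calls in FL (1502) became 992 without the filter, 2316 in DESeq2, 3352 in limma, 2447 with the hair covariate, 953 with 2 groups, 65 without the 5 libraries of high hair score, 244 in the 500s and 884 to 1696 with 1 library left out, the lowest being without FL UV 4 (884), FL NoUV 2 (904) and FL NoUV 4 (1000). UV calls in cKO (1917) became 1276, 2884 and 3810 in the first 3, 406 in the 500s and 1178 to 2424 with 1 library left out, the lowest without cKO NoUV 3 (1178) and cKO NoUV 2 (1195). The settings without the 5 libraries and within the 500s were chosen after seeing the data. The 500s are column numbers, held by replicates 2 and 3 of each group. The median of UV-induced genes was 0.58 without the 5 libraries.

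With the replicate number of the titles as a block, 0 interactions and 2129 and 2553 UV effects were called. Same-number libraries deviated together more often than others, with a median correlation of 0.20 against -0.04, but only 13 of 24 same-number pairs exceeded 0.1, so the numbers were not taken as pairs. Of 16 libraries, 9 matched best with their own number, as a hint from the data and not from the design.

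Results of named genes kept direction and side of the threshold in 2624 cases, passed it in 5 and changed direction in 61. None of these results was called in the main fit. Keeping the side therefore means staying uncalled, no call could be lost, and the 2624 cases do not measure stability. The 61 lay in 15 genes, whose interactions had unadjusted p values of 0.0679 (Bdnf) or more. Without the 5 libraries the interaction became 0.03 for Ifit1, 0.79 for Mx1, 0.34 for Ccl2, 0.17 for Krt6a, -0.49 for Krt14, -0.02 for Cd274, 0.04 for Gclc, -0.01 for Asns, 0.07 for Cdk1 and 0.23 for Ccne1. In the 500s it became 0.09 for Ifit1, 0.51 for Mx1, 0.93 for Ccl2, 0.12 for Tnf, 0.25 for Krt6a, -0.03 for Krt14, -0.26 for Cd274, -0.36 for Bdnf, 0.14 for Ccne1 and -0.16 for Ciart. In limma it was 0 for Tnf (above 0 before rounding), 1.23 for Krt6a and -0.06 for Cd274. Krt6a was also 0.48 with the replicate block, 0.30 with the column number block, 0.17 and 0.34 with the covariates, and 0.30 without the 2 shallow libraries, where Il6 was -0.18. With 1 library left out, the ranges were -0.06 to 0.69 for Isg15, -0.42 to 0.35 for Mx1, -0.47 to 0.20 for Ccl2, -0.28 to 0.14 for Tnf, -0.79 to 1.11 for Krt6a, -0.09 to 0.66 for Krt14 and -0.06 to 0.32 for Cd274. The cause was not tested. Egr1, Fgf7, Itgb3, Lvrn, Nexmif, Osr1, Slc25a24 and Trim16 had an unadjusted p under 0.05 in all 28. These genes were named for a small interaction p in the same libraries. The alternatives refit all or part of those libraries, so they are no independent check. In the 500s the unadjusted interaction p was 0.0546 for Usp18, 0.0567 for Septin4, 0.0623 for Elf3 and 0.0745 for Hoxc10. There it was 0.0868 for Adm, 0.105 for Chga and 0.121 for Cwc27. With a median SE of 0.38, interactions well above that size could also be missed, since Nexmif at -1.75 (SE 0.49) was not called. The SE differed by gene, with 0.17 for Slc25a24 and 1.19 for Krt6a.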
